A study of Mus musculus with 16 samples.

Results

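The proteasome is the protease that degrades most proteins tagged with ubiquitin, and the transcripts of its subunits and assembly factors were followed in cultured mouse hepatocytes. Members were all genes whose symbol begins with Psma, Psmb, Psmc, Psmd, Psme, Psmf or Psmg followed by a digit, without pseudogenes. These were 50 of the 55416 genes measured. The cells were primary hepatocytes, the parenchymal cells of liver, in 4 groups of 4 libraries. HKO cells carried Cre recombinase (Alb-cre+), which the albumin promoter expresses in hepatocytes, and came from mice bred to lose Smpd3, a neutral sphingomyelinase. FLOX cells (Alb-cre-) lacked Cre. Each genotype received 0.4 mM palmitic acid (PA, a saturated fatty acid) or vehicle for 24 h, which gave the groups HKO with PA, HKO with vehicle, FLOX with PA and FLOX with vehicle. The labels give neither ages nor strains, and do not say whether the libraries of a group came from separate mice or cultures. The p-values therefore measure the spread between these libraries, which may be technical.

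The core particle of the proteasome, called 20S, is a barrel of alpha and beta rings. Its beta subunits Psmb5, Psmb6 and Psmb7 cut proteins, and interferon signals can replace them with the immunoproteasome subunits Psmb8, Psmb9 and Psmb10, which favour peptides for antigen presentation. The regulatory particle, called 19S, sits on the barrel. Its base unfolds substrates with the Psmc ATPases, and its lid removes ubiquitin. Other caps (Psme1 to Psme4) open the barrel without ubiquitin, and chaperones (Psmg1 to Psmg4 for the core, Psmd5, Psmd9 and Psmd10 for the base) assist assembly. In hepatocytes the proteasome clears misfolded secretory proteins and short-lived regulators. When it is impaired, the transcription factor Nfe2l1 is known to raise its genes.

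The values were TPM, each gene's length-corrected share of the transcripts of its library, which keep no sequencing depth. Hepatocyte markers were high in every library, with Alb at 17752 to 24692 TPM. The 6 summed to 31703 to 32328 TPM in HKO with PA, 39051 to 40511 TPM in HKO with vehicle, 32011 to 33536 TPM in FLOX with PA and 39656 to 40878 TPM in FLOX with vehicle, so the sums were lower with PA without overlap. Of 6 leukocyte markers none reached 1 TPM, their sum was at most 0.51 TPM, and Ncr1 was at 0 throughout. Of 6 macrophage markers only Cd68 and Csf1r reached 1 TPM, Timd4 was at 0, and the sum, nearly all Cd68, was 80.7 to 107 TPM in HKO with PA, 60.4 to 69.6 TPM in HKO with vehicle, 55.5 to 68.0 TPM in FLOX with PA and 48.4 to 55.1 TPM in FLOX with vehicle. The 4 cholangiocyte markers, mostly Spp1, summed to 338 to 385, 297 to 323, 196 to 241 and 178 to 189 TPM in the same groups. Endothelial markers summed to at most 5.4 TPM and stellate cell markers to at most 0.80 TPM. The part of these markers in the results below was not tested, and in bulk samples fewer cells of a type cannot be told apart from less RNA per cell. Smpd3 itself averaged 7.82 ± 1.11 TPM in HKO with PA and 46.0 ± 2.36 TPM in FLOX with PA, and 5.29 ± 0.71 TPM in HKO with vehicle and 32.0 ± 4.09 TPM in FLOX with vehicle (SD, n = 4 each, as for all means here). The FLOX libraries numbered 1 stood apart from the others of their groups on the third principal component, so counts are also given without them. HKO PA replicate 2 and HKO vehicle replicate 2 lay apart from their groups there too, at -4.52 against 5.28 to 10.7 and at -12.0 against -1.55 to 5.20. The members that passed without each are given with the counts.

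Of the 50 members, 47 passed the filter of at least 1 TPM in at least 4 of the 16 libraries. Averaged over all libraries, these had a median level of 100.3 TPM, against 11.8 TPM over all 11858 genes tested. Psmd8, a lid subunit, was listed far above the rest at 925 TPM, a level whose dependence on the annotation used was not tested, and its lowest library (838.6 TPM) exceeded the highest of any other member (380.7 TPM, Psma7). Next came the core subunits Psmb5 (343 TPM), Psmb4 (316 TPM), Psmb6 (305 TPM) and Psma7 (302 TPM), whose ranges over libraries overlapped. Among genes of the assembled particles, Psma2 was lowest in the core (51.5 TPM) and Psmc6 lowest in the regulatory particle (69.5 TPM). The assembly chaperones ran from 17.7 TPM (Psmd9) to 59.2 TPM (Psmg4), and the immunoproteasome subunit Psmb9 was lowest of the genuine subunits tested at 10.5 TPM.

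The 3 members that were not tested are known from other tissues. Psma8, a testis form of an alpha subunit, had 0.36 to 1.01 TPM, Psmb11, a thymus form of the catalytic subunit Psmb5, had 0 to 0.30 TPM, and Psme2b, a copy of Psme2, had 0 to 0.59 TPM. Psmc3ip matched by name only, since it encodes a factor of meiotic recombination, and stood at 0.73 to 2.06 TPM. Psme2 and Psme2b are near copies, so how reads were divided between them is uncertain.

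Promoter sequence was at hand for 42 of the 50 members, taken from RefSeq (GRCm38.p6) as the 250 bases before each listed start. An ETS core (CCGGAAG, either strand), the letters bound by the ETS family of transcription factors, occurred in 13 of the 42 members (31.0%), against 7.8% of all 27025 genes of the table. The antioxidant response element (TGACNNNGC, either strand), which Nfe2l1 and Nfe2l2 bind, occurred in 5 members (11.9%), against 11.5% of all genes. The letters GAANNTTC, part of a heat shock element, occurred in 3 members (7.1%, against 7.7%). An interferon response element occurred in 3 (7.1%, against 3.5%) and a STAT site (TTCNNNGAA) in 2 (4.8%, against 8.1%). The motif counts over members carry no test and overlap in a few genes, and letters are not proof of binding. The 27025 genes were not filtered by their level in these libraries, so they are a broader set than the genes tested. The ETS core occurred in 9 of 24 matched members that were higher with PA in either genotype, and in 4 of the 18 others. Whether it bears on the response to PA was not tested. Below are the windows before Psmb6 (chr11:70525107-70525356, plus strand) and Psmb5 (chr14:54617996-54618245, minus strand), catalytic subunits that hold the antioxidant element, and before Psmd11 (chr11:80428365-80428614, plus strand) and Psmd2 (chr16:20651402-20651651, plus strand), which are among the members that PA raised in both genotypes and hold the ETS core. Each is written 5′ to 3′ along its gene and ends at the base before the start, with the motif in capitals.
Psmb6: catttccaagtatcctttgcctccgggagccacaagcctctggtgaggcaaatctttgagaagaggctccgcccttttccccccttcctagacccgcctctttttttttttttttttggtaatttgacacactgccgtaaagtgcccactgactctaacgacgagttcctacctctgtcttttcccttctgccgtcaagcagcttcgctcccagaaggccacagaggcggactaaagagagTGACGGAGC
Psmb5: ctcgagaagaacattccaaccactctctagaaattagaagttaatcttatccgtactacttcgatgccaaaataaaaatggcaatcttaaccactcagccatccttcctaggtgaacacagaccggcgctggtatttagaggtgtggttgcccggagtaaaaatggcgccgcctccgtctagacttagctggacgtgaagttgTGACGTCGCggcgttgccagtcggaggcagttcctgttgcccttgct
Psmd11: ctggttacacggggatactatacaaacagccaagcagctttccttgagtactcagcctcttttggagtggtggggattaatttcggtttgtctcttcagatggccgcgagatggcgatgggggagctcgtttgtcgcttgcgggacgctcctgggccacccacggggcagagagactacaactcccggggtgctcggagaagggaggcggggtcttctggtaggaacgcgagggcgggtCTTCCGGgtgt
Psmd2: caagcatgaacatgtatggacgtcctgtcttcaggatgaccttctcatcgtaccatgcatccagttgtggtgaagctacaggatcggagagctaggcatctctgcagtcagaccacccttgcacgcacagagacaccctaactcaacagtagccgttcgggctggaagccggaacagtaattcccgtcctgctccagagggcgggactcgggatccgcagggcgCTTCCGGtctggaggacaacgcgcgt

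Palmitic acid was set against vehicle in each genotype, and HKO against FLOX under each treatment, with limma on log2(TPM + 1) over all 11858 genes and a threshold of 0.05 on the Benjamini-Hochberg adjusted p. With PA in HKO cells 26 of 47 members were higher and 1 was lower. Of all genes, 42.5% passed in that comparison, 29.4% higher and 13.1% lower. With PA in FLOX cells 17 members were higher and none lower, against 34.4% of all genes, 23% higher and 11.5% lower. The members that passed were 57.4% of the 47 in HKO and 36.2% in FLOX, the latter near the share of all genes. Under a stricter filter of 5 TPM, 27 of 46 members passed in HKO, against 50.1% of all genes. In FLOX 17 of the 46 passed under that filter, against 40.7% of all genes. The median log2 fold change of members was 0.13 in HKO, against 0.11 over all genes, and 0.086 in FLOX, against 0.096 over all genes. In FLOX the members' median depended on 1 library: without FLOX PA replicate 1 it was 0.055, against 0.11 over all genes, and without both FLOX libraries numbered 1 it was 0.057, against 0.13.

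Between genotypes more members were lower in HKO than higher. With PA, HKO cells had 1 member higher and 15 lower than FLOX cells, where 9.74% of all genes passed, 4.24% higher and 5.5% lower. With vehicle, none was higher and 24 were lower, where 11.7% of all genes passed, 4.11% higher and 7.56% lower. The median log2 fold change of members was -0.097 with PA, against -0.0077 over all genes, and -0.14 with vehicle, against -0.023 over all genes. The sign was negative for 40 of 47 members with PA and for 41 with vehicle.

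Scaling bore on these counts. Median-ratio scaling, which sets the median gene of each library level, moved the median of all genes from 0.11 to 0.0056 with PA in HKO, and from 0.096 to 0.0081 with PA in FLOX. Under it 8 members were higher and 4 lower with PA in HKO, where 37.7% of all genes passed (2103 of 11858 higher, 2369 lower). With PA in FLOX 5 members were higher, where 30.6% of all genes passed (1647 higher, 1984 lower). HKO was lower than FLOX for 4 members with PA, where 8.87% of all genes passed. With vehicle it was lower for 7 and higher for 1 (Psme4), where 9.97% of all genes passed. Among all genes that passed, the share that was higher moved from 69.3% to 47.0% with PA in HKO, from 66.7% to 45.4% with PA in FLOX, from 43.5% to 55.0% between genotypes with PA and from 35.2% to 56.6% with vehicle. Without both FLOX libraries numbered 1, 27 members passed with PA in HKO, 16 with PA in FLOX, 11 between genotypes with PA and 28 with vehicle. Of all genes 47.2%, 44.4%, 10.4% and 13.8% passed in the same order. Without HKO PA replicate 2 the members were 26, 16, 9 and 24, against 37.2%, 34.3%, 7.45% and 11.2% of all genes. Without HKO vehicle replicate 2 they were 23, 16, 14 and 18, against 41%, 34%, 9.39% and 8.58% of all genes.

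**Figure D1:**
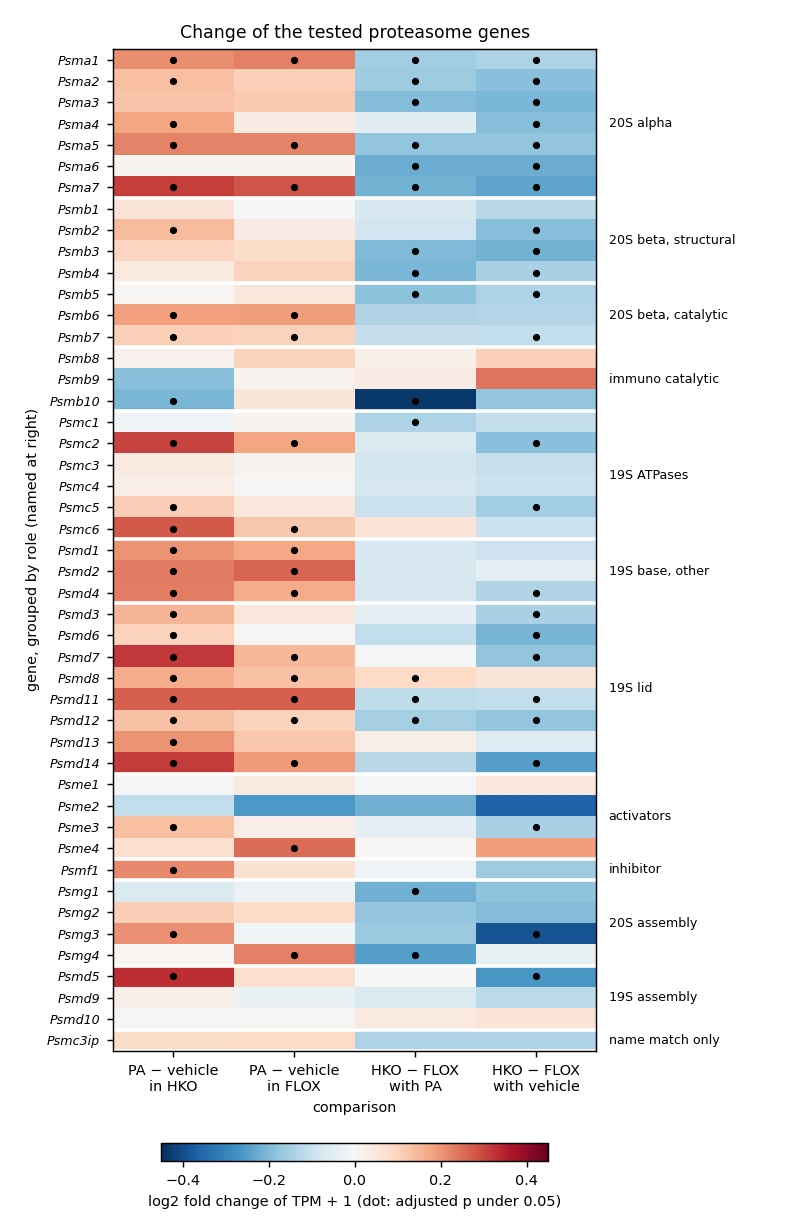
Log2 fold changes of TPM + 1 for the 47 tested members (rows, grouped by role) in 4 comparisons (columns), as colours from blue (lower) to red (higher), with a dot where the limma adjusted p was under 0.05. The lid rows are red with PA in HKO, while all 14 core rows (Psma1 to Psmb7) are blue in both comparisons of HKO with FLOX.

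In the core particle, PA raised 8 of the 14 subunits in HKO cells and 5 in FLOX cells, and lowered none. Of all genes, 29.4% were higher in HKO and 23% in FLOX. The median log2 fold change of the 14 was 0.13 in HKO and 0.10 in FLOX, near the 0.11 and 0.096 over all genes. Psma7, an alpha ring subunit, had 299, 310, 315 and 311 TPM in HKO with PA and 253, 250, 241 and 251 TPM in HKO with vehicle. It had 381, 345, 348 and 358 TPM in FLOX with PA and 290, 278, 306 and 300 TPM in FLOX with vehicle. Within each genotype the PA libraries all lay above the vehicle libraries, and under each treatment the HKO libraries all lay below the FLOX libraries. The log2 fold change with PA was 0.31 ± 0.037 in HKO and 0.28 ± 0.037 in FLOX (± SE, limma adjusted p = 6.74e-06 and 2.33e-05). HKO against FLOX it was -0.21 ± 0.037 with PA and -0.24 ± 0.037 with vehicle (limma adjusted p = 0.00135 and 0.000476). These 4 calls held under all 26 alternative settings. With PA the other calls in both genotypes were Psma1, Psma5, Psmb6 and Psmb7, of which Psma1 in FLOX alone held under median-ratio scaling. That scaling left 1 core subunit higher in HKO and 2 in FLOX, and 6 of the 14 then had a negative sign in each genotype.

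The difference between genotypes in the core had one sign throughout. All 14 subunits were negative in HKO against FLOX with PA, of which 9 passed, and all 14 with vehicle, of which 12 passed. All 14 were negative too under median-ratio scaling, where 3 and 2 passed, and under quantile normalization, where 6 passed under each treatment. Of all genes, 9.74% passed with PA and 11.7% with vehicle as fitted. These shares were 8.87% and 9.97% under median-ratio scaling, and 10.5% and 11.5% under quantile normalization. Psma6, another alpha subunit, had 141, 148, 144 and 148 TPM in HKO with PA, against 174, 171, 170 and 165 TPM in FLOX with PA. It had 151, 137, 150 and 138 TPM in HKO with vehicle, against 164, 170, 173 and 166 TPM in FLOX with vehicle. No library of HKO reached the FLOX libraries of the same treatment, and Psma6 did not pass with PA in either genotype. Its log2 fold change between genotypes was -0.22 ± 0.037 under each treatment (limma adjusted p = 0.000939 with PA and 0.000908 with vehicle), and these calls held under all 26 settings. The 7 genes of the alpha ring summed to 1024 ± 19.5 TPM in HKO with PA, 895 ± 19.6 TPM in HKO with vehicle, 1153 ± 26.4 TPM in FLOX with PA and 1031 ± 27.5 TPM in FLOX with vehicle. The sum in HKO was 88.8% of that in FLOX with PA and 86.8% with vehicle, a description with no test. The beta ring, Psmb1 to Psmb7, summed to 1697 ± 43.8, 1595 ± 32.3, 1888 ± 56.0 and 1771 ± 46.6 TPM in the same groups.

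**Figure D2:**
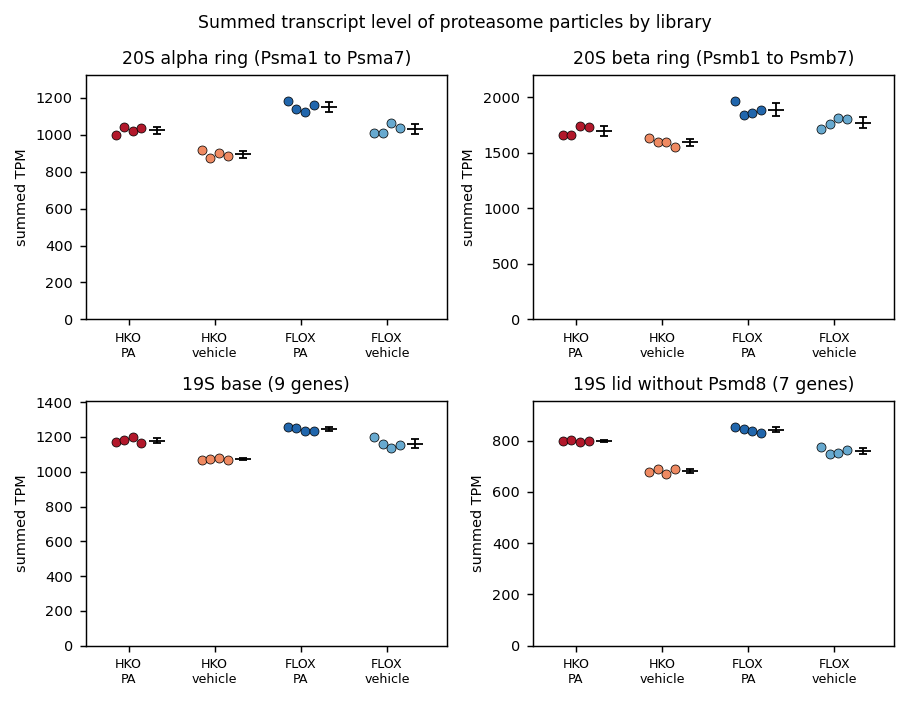
Summed TPM of 4 sets of subunits (the alpha ring, the beta ring, the base and the lid without Psmd8, in panels) in each library (points), with the mean and SD of the 4 libraries beside them. With Psmd8 left out of the lid, in all 4 sets the HKO libraries lie below the FLOX libraries of the same treatment. The PA libraries lie above the vehicle libraries of the same genotype. With Psmd8 included (not shown), the lid sums with PA overlapped, at 1793.1 to 1809.5 TPM in HKO and 1770.0 to 1800.3 TPM in FLOX. With vehicle they did not, at 1536.2 to 1601.3 TPM in HKO and 1615.2 to 1636.9 TPM in FLOX.

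In the regulatory particle PA raised 14 of 17 subunits in HKO cells, among them all 8 of the lid, and 10 in FLOX cells, 5 of them in the lid. Of all genes, 29.4% were higher in HKO and 23% in FLOX. The median log2 fold change of the 17 with PA was 0.20 in HKO and 0.12 in FLOX, against 0.11 and 0.096 over all genes. Psmd11, a lid subunit that clamps the particle to the core, had 196, 187, 196 and 197 TPM in HKO with PA and 160, 167, 156 and 161 TPM in HKO with vehicle. It had 209, 208, 213 and 211 TPM in FLOX with PA and 179, 173, 171 and 173 TPM in FLOX with vehicle. All PA libraries lay above all vehicle libraries, of either genotype. The log2 fold change with PA was 0.27 ± 0.029 in each genotype (limma adjusted p = 2.40e-06 in HKO and 3.15e-06 in FLOX). Psmd2, a scaffold of the base, had 117, 116, 119 and 119 TPM in HKO with PA, 97.6, 103, 104 and 95.1 TPM in HKO with vehicle, 118, 129, 122 and 127 TPM in FLOX with PA, and 111, 101, 98.1 and 103 TPM in FLOX with vehicle. The PA libraries lay above the vehicle libraries in each genotype. It rose by 0.24 ± 0.044 in HKO and 0.26 ± 0.044 in FLOX (limma adjusted p = 0.000443 and 0.000247). Both genes held under all 26 settings in both genotypes.

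Several further subunits had larger log2 fold changes with PA in HKO than in FLOX, a difference that passed the interaction test for no member. Psmd7, a lid partner of the ubiquitin protease Psmd14, had 129, 135, 128 and 130 TPM in HKO with PA, 101, 105, 104 and 108 TPM in HKO with vehicle, 134, 133, 130 and 129 TPM in FLOX with PA, and 125, 113, 118 and 117 TPM in FLOX with vehicle. The HKO libraries with vehicle were lowest, while those of HKO and FLOX with PA overlapped. For Psmd7 the log2 fold change with PA was 0.32 ± 0.035 in HKO and 0.15 ± 0.035 in FLOX (limma adjusted p = 2.76e-06 and 0.00368), and the call in FLOX was lost under median-ratio scaling. Psmd14 itself rose by 0.31 ± 0.044 in HKO and by 0.19 ± 0.044 in FLOX (limma adjusted p = 3.12e-05 and 0.00320), the call in FLOX again being lost under that scaling. The ATPase Psmc2 rose by 0.30 ± 0.035 in HKO and 0.18 ± 0.035 in FLOX (limma adjusted p = 4.34e-06 and 0.000927), likewise, and Psmc6 by 0.27 ± 0.045 in HKO (limma adjusted p = 0.000149). Psmc6 in FLOX stood at 0.12 ± 0.045 (limma adjusted p = 0.0484), a call kept in 6 of 26 settings. The ATPases Psmc1, Psmc3 and Psmc4 passed with PA in neither genotype. Under median-ratio scaling 6 of the 17 were higher and 1 (Psmc1) lower with PA in HKO, and 2 were higher in FLOX.

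Between genotypes 9 of the 17 were lower in HKO with vehicle, and 3 lower and 1 higher with PA. Under median-ratio scaling 4 were lower with vehicle, and with PA 0 were lower and 0 higher. Psmd14 was at -0.25 ± 0.044 with vehicle (limma adjusted p = 0.00133), with 93.5, 86.6, 87.0 and 87.0 TPM in HKO against 108, 102, 108 and 104 TPM in FLOX. The groups did not overlap, and the call held under all 26 settings, as did those of Psmc2, Psmd7 and Psmd12. With PA the values of Psmd14 were 106, 103, 113 and 119 TPM in HKO against 122, 122, 120 and 118 TPM in FLOX, which overlapped (-0.13 ± 0.044, limma adjusted p = 0.0875). Psmd12, a lid subunit, was lower under both treatments, with log2 fold changes of -0.15 ± 0.035 with PA and -0.18 ± 0.035 with vehicle (limma adjusted p = 0.0121 and 0.00333), the call with PA being lost under median-ratio scaling (adjusted p up to 0.0727 over the settings) and from the 2 groups alone. Psmd8, the member with the highest listed level, had the opposite sign. It had 997, 1009, 998 and 1010 TPM in HKO with PA, 889, 905, 866 and 914 TPM in HKO with vehicle, 947, 941, 946 and 939 TPM in FLOX with PA, and 839, 868, 863 and 874 TPM in FLOX with vehicle. HKO lay above FLOX in all libraries with PA and overlapped it with vehicle, and the log2 fold change was 0.089 ± 0.023 with PA and 0.053 ± 0.023 with vehicle (limma adjusted p = 0.0206 and 0.160). The first call was kept in 21 of 26 settings. It was lost without HKO PA replicate 2 or FLOX PA replicate 4 and under median-ratio scaling (largest adjusted p = 0.215 over the settings).

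**Figure D3:**
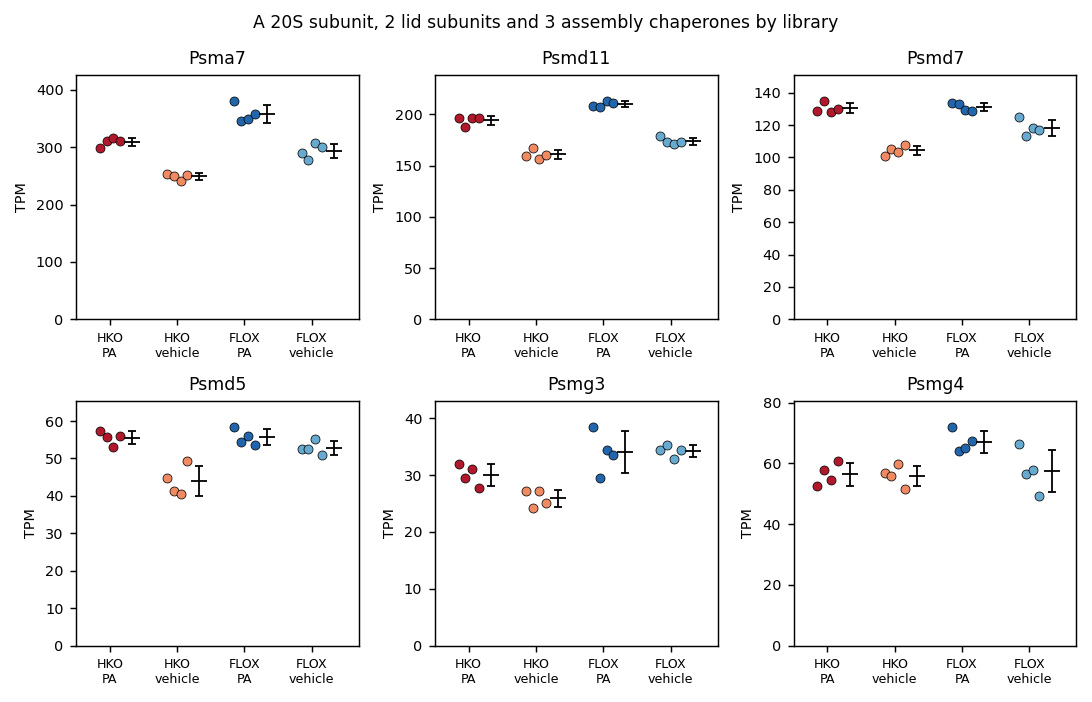
TPM of 6 members (panels) in each library (points), with the mean and SD of the 4 libraries beside them. Psma7 and Psmd11 are higher with PA in both genotypes, Psmd7 and Psmd5 are lowest in HKO with vehicle, and Psmg3 is lowest there too.

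Of the catalytic subunits, PA raised Psmb6 and Psmb7 but did not move Psmb5 past the threshold. Psmb6, which cuts after acidic residues, had 298, 302, 322 and 317 TPM in HKO with PA, 278, 281, 272 and 260 TPM in HKO with vehicle, 355, 325, 339 and 342 TPM in FLOX with PA, and 282, 291, 309 and 313 TPM in FLOX with vehicle. The PA libraries lay above the vehicle libraries in each genotype. The log2 fold changes were 0.18 ± 0.041 in HKO and 0.19 ± 0.041 in FLOX (limma adjusted p = 0.00221 and 0.00254), calls that were lost under median-ratio scaling alone. Psmb7, which cuts after basic residues, had 230, 224, 235 and 229 TPM in HKO with PA, 227, 208, 212 and 206 TPM in HKO with vehicle, 253, 242, 248 and 248 TPM in FLOX with PA, and 222, 225, 235 and 239 TPM in FLOX with vehicle. The log2 fold changes were 0.11 ± 0.035 in HKO and 0.10 ± 0.035 in FLOX (limma adjusted p = 0.0196 and 0.0286), kept in 19 and 16 of 26 settings. The value in HKO became -0.013 under median-ratio scaling.

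Psmb5, which cuts after hydrophobic residues and is the main target of proteasome inhibitors, had 317, 325, 334 and 322 TPM in HKO with PA, 336, 321, 321 and 315 TPM in HKO with vehicle, 380, 365, 359 and 370 TPM in FLOX with PA, and 340, 358, 361 and 363 TPM in FLOX with vehicle. The groups with PA and vehicle overlapped in each genotype, with log2 fold changes of 0.0063 ± 0.031 in HKO and 0.052 ± 0.031 in FLOX (limma adjusted p = 0.891 and 0.20). HKO lay below FLOX in every library of the same treatment, with log2 fold changes of -0.18 ± 0.031 with PA and -0.14 ± 0.031 with vehicle (limma adjusted p = 0.000886 and 0.00782). Both calls were lost under median-ratio scaling alone (adjusted p = 0.0573 and 0.249).

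The immunoproteasome subunits were scarcer, and 1 of them, Psmb10, fell with PA in HKO. It was the 1 member called lower with PA, and Psmb9, Psmc1 and Psme1 were lower too under median-ratio scaling. Psmb10, the counterpart of Psmb7, had 28.5, 27.9, 27.3 and 28.7 TPM in HKO with PA and 32.8, 34.6, 29.9 and 33.1 TPM in HKO with vehicle. It had 39.2, 37.2, 37.5 and 39.6 TPM in FLOX with PA and 33.8, 37.5, 42.3 and 34.5 TPM in FLOX with vehicle. The libraries of HKO with PA were the lowest of all 16. On the log2 scale the change was -0.21 ± 0.063 with PA in HKO and 0.054 ± 0.063 with PA in FLOX (limma adjusted p = 0.0152 and 0.531). HKO against FLOX it was -0.44 ± 0.063 with PA, the largest difference of any member in that comparison, and -0.18 ± 0.063 with vehicle (limma adjusted p = 0.000229 and 0.0847). Both calls held under all 26 settings. The difference between the responses of the genotypes was -0.26 ± 0.088 and did not pass (limma unadjusted p = 0.0101, adjusted p = 0.423).

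Psmb8, the counterpart of Psmb5, passed in no comparison as fitted. It was higher with PA in FLOX without both FLOX libraries numbered 1 (0.16, limma adjusted p = 0.0477) and with sample weights (0.15, limma adjusted p = 0.0307). It had 29.7, 30.9, 30.6 and 31.0 TPM in HKO with PA, 29.6, 32.2, 30.2 and 28.6 TPM in HKO with vehicle, 27.5, 27.8, 32.8 and 32.4 TPM in FLOX with PA, and 29.0, 28.4, 27.4 and 26.9 TPM in FLOX with vehicle. The PA and vehicle groups of each genotype overlapped. Psmb9, the counterpart of Psmb6, had 8.65, 11.5, 9.52 and 11.4 TPM in HKO with PA, 11.4, 12.3, 12.3 and 11.1 TPM in HKO with vehicle, 10.0, 9.11, 10.1 and 10.5 TPM in FLOX with PA, and 9.07, 9.75, 8.84 and 11.8 TPM in FLOX with vehicle. Its groups overlapped in all 4 comparisons. Its log2 fold change with PA in HKO was -0.19 ± 0.094 (limma adjusted p = 0.125) and passed under median-ratio scaling (-0.30, adjusted p = 0.0218) and quantile normalization (-0.30, adjusted p = 0.0219). HKO against FLOX with vehicle it passed without FLOX vehicle replicate 4 (0.32, adjusted p = 0.0412). The 3 immunoproteasome subunits made up 7.39 ± 0.28% of the summed TPM of the 6 catalytic subunits in HKO with PA, 8.43 ± 0.36% in HKO with vehicle, 7.58 ± 0.35% in FLOX with PA and 7.80 ± 0.27% in FLOX with vehicle. TPM is scaled by transcript length, so such shares compare genes per length, and they carry no test.

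**Figure D4:**
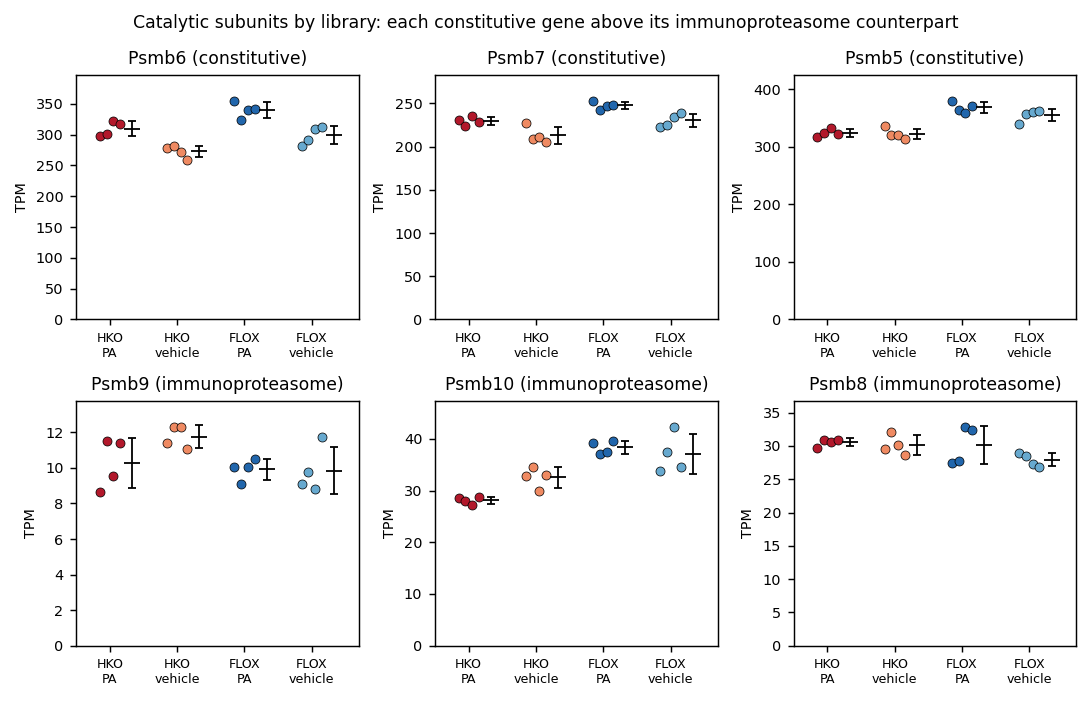
TPM of the constitutive catalytic subunits Psmb5, Psmb6 and Psmb7 and of their immunoproteasome counterparts Psmb8, Psmb9 and Psmb10 in each library (points), with the mean and SD of the 4 libraries beside them. Psmb10 is lowest in HKO with PA, at 27.3 to 28.7 TPM, while Psmb8 and Psmb9 passed in no comparison with all libraries and without rescaling or weights.

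Psmb9 lies head to head with Tap1, a pump that carries proteasome products into the endoplasmic reticulum, and their listed starts are 225 bases apart on chromosome 17. The interval (chr17:34187331-34187555, minus strand, the strand of Psmb9; RefSeq, GRCm38.p6) is shown because the genes on its sides differed in their calls. The capitals mark the heat shock letters (GAANNTTC), and no interferon response element or STAT site was found in the interval.
Psmb9: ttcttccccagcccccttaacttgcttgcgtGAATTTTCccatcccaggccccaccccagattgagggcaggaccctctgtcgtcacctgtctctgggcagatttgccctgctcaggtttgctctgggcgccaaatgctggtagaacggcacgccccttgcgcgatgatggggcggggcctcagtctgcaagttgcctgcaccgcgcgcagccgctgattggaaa
Tap1 had 11.6, 12.2, 9.72 and 9.15 TPM in HKO with PA, 7.46, 8.19, 6.71 and 7.66 TPM in HKO with vehicle, 10.6, 12.1, 9.24 and 11.03 TPM in FLOX with PA, and 7.64, 8.78, 7.75 and 6.73 TPM in FLOX with vehicle. The PA libraries lay above the vehicle libraries in each genotype, with log2 fold changes of 0.45 ± 0.10 in HKO and 0.43 ± 0.10 in FLOX (limma adjusted p = 0.00211 and 0.00412). Tap2, its partner, rose by 0.35 ± 0.058 in HKO and 0.32 ± 0.058 in FLOX (limma adjusted p = 0.000194 and 0.000620), and Nlrc5, an activator of antigen presentation genes, by 0.57 ± 0.15 and 0.59 ± 0.15 (limma adjusted p = 0.00677 and 0.00668). B2m, the light chain of class I molecules, fell with PA by 0.19 ± 0.026 in HKO and by 0.17 ± 0.026 in FLOX (limma adjusted p = 2.90e-05 and 0.000140). These were the calls among the 12 antigen processing genes listed, 3 higher and 1 lower in each genotype, where 29.4% of all genes were higher in HKO and 23% in FLOX. All 4 passed under median-ratio scaling and quantile normalization too. Median-ratio scaling gave 4 lower in HKO and 2 in FLOX, where 2369 and 1984 of all 11858 genes were lower. Quantile normalization gave 2 lower in each, where 2228 and 1877 of all genes were lower.

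Of the activators, Psme4 and Psme3 passed in 1 genotype each. Psme4, a nuclear cap, had 22.7, 23.9, 23.4 and 22.7 TPM in HKO with PA, 21.7, 24.8, 21.1 and 20.5 TPM in HKO with vehicle, 20.2, 25.6, 23.9 and 22.7 TPM in FLOX with PA, and 21.4, 18.7, 17.7 and 19.1 TPM in FLOX with vehicle. Its log2 fold change with PA was 0.25 ± 0.075 in FLOX, though FLOX PA replicate 1 lay within the vehicle range, and 0.072 ± 0.075 in HKO (limma adjusted p = 0.0164 and 0.465). The call was lost without FLOX PA replicate 2 (adjusted p = 0.0604), without FLOX vehicle replicate 3 (adjusted p = 0.0555) and with the replicate number as a block (adjusted p = 0.0553). Psme3, another nuclear cap, had 62.7, 63.2, 64.3 and 60.4 TPM in HKO with PA, 56.5, 59.6, 56.2 and 55.4 TPM in HKO with vehicle, 62.4, 68.4, 64.3 and 63.1 TPM in FLOX with PA, and 64.2, 65.4, 60.5 and 62.6 TPM in FLOX with vehicle. The HKO libraries with vehicle lay below all the others. On the log2 scale it stood at 0.14 ± 0.039 with PA in HKO and -0.15 ± 0.039 in HKO against FLOX with vehicle (limma adjusted p = 0.0112 and 0.0241), kept in 24 and 19 of 26 settings. These comparisons share the HKO vehicle libraries, with opposite sign, so the calls are not independent. Both were lost under median-ratio scaling and quantile normalization, and the call between genotypes also without any 1 of HKO vehicle replicates 1, 3 and 4 and FLOX vehicle replicates 1 and 2 (largest adjusted p = 0.0749 over the settings).

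Psme1 and Psme2 form the cap that interferon induces, and neither passed, though under median-ratio scaling Psme1 was lower with PA in HKO (-0.13, limma adjusted p = 0.0361). Psme1 had 97.1, 90.7, 86.6 and 82.7 TPM in HKO with PA, 89.0, 92.6, 91.9 and 85.3 TPM in HKO with vehicle, 89.5, 90.3, 86.1 and 92.2 TPM in FLOX with PA, and 87.8, 87.9, 86.1 and 85.5 TPM in FLOX with vehicle. Psme2 had 75.5, 102, 85.2 and 81.7 TPM in HKO with PA, 119, 96.1, 85.1 and 74.6 TPM in HKO with vehicle, 92.5, 87.8, 89.5 and 135 TPM in FLOX with PA, and 111, 125, 140 and 105 TPM in FLOX with vehicle. Its groups with PA and vehicle overlapped in each genotype. Its log2 fold change with PA in FLOX was -0.26 ± 0.15 (limma adjusted p = 0.204), and without FLOX PA replicate 4, the library at 135 TPM, it was -0.40 and passed (adjusted p = 0.0385). Psmf1, which encodes an inhibitor of the core, had 20.3, 21.3, 18.6 and 19.9 TPM in HKO with PA, 16.7, 16.2, 16.2 and 19.5 TPM in HKO with vehicle, 22.8, 21.6, 18.1 and 18.6 TPM in FLOX with PA, and 18.6, 17.7, 19.9 and 20.7 TPM in FLOX with vehicle. It rose with PA in HKO by 0.22 ± 0.080 (limma adjusted p = 0.0400) although HKO vehicle replicate 4 lay within the PA range, a call kept in 16 of 26 settings.

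The chaperones of core assembly had no common response to PA. Psmg3 had 32.0, 29.5, 31.2 and 27.7 TPM in HKO with PA, 27.1, 24.2, 27.2 and 25.1 TPM in HKO with vehicle, 38.5, 29.5, 34.5 and 33.6 TPM in FLOX with PA, and 34.4, 35.2, 32.8 and 34.3 TPM in FLOX with vehicle. The HKO libraries with vehicle lay below all the others. HKO against FLOX its log2 fold change was -0.39 ± 0.069 with vehicle, the largest of any member in that comparison (limma adjusted p = 0.00161), and held under all 26 settings. With PA it was -0.17 ± 0.069 (limma adjusted p = 0.161), and PA raised it in HKO by 0.21 ± 0.069 (limma adjusted p = 0.0246, kept in 20 of 26 settings).

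Psmg4, which pairs with Psmg3, had 52.5, 57.8, 54.5 and 60.8 TPM in HKO with PA, 56.8, 55.7, 59.7 and 51.7 TPM in HKO with vehicle, 72.0, 64.1, 65.0 and 67.5 TPM in FLOX with PA, and 66.4, 56.5, 57.8 and 49.3 TPM in FLOX with vehicle. Its log2 fold change was 0.23 ± 0.075 with PA in FLOX and -0.25 ± 0.075 in HKO against FLOX with PA (limma adjusted p = 0.0291 and 0.0494), kept in 17 and 7 of 26 settings. Psmg1 and Psmg2 pair with each other. Psmg1 had 23.0, 26.2, 24.5 and 25.4 TPM in HKO with PA against 29.4, 29.1, 27.9 and 29.4 TPM in FLOX with PA, without overlap (-0.22 ± 0.062, limma adjusted p = 0.0346, kept in 15 of 26 settings), and 27.6, 23.9, 27.2 and 25.0 TPM in HKO with vehicle against 27.4, 28.3, 32.8 and 29.7 TPM in FLOX with vehicle. Psmg2 passed in no comparison, with 23.2 to 27.6 TPM in HKO with PA, 21.3 to 26.0 TPM in HKO with vehicle, 25.1 to 33.0 TPM in FLOX with PA and 25.2 to 28.4 TPM in FLOX with vehicle. All 4 chaperones had a negative sign in HKO against FLOX under each treatment, and 1 turned positive with vehicle under quantile normalization. Pomp, a further maturation factor outside the Psm symbols, passed in no comparison.

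Of the chaperones of the base, Psmd5 passed and Psmd9 and Psmd10 did not. Psmd5 had 57.3, 55.9, 53.1 and 56.0 TPM in HKO with PA, 44.8, 41.3, 40.5 and 49.4 TPM in HKO with vehicle, 58.4, 54.5, 56.1 and 53.6 TPM in FLOX with PA, and 52.5, 52.6, 55.3 and 51.0 TPM in FLOX with vehicle. The HKO libraries with vehicle lay below all the others, and the other groups overlapped. With PA its log2 fold change was 0.33 ± 0.055 in HKO, the largest of any member, and 0.073 ± 0.055 in FLOX (limma adjusted p = 0.000158 and 0.323). HKO against FLOX with vehicle it was -0.26 ± 0.055 (limma adjusted p = 0.00523, and 0.0601 under median-ratio scaling). Psmd9 stood at 15.6 to 18.6 TPM in HKO with PA, 15.9 to 17.4 TPM in HKO with vehicle, 15.5 to 19.3 TPM in FLOX with PA and 16.6 to 20.8 TPM in FLOX with vehicle. Psmd10, known as the oncoprotein gankyrin, stood at 29.6 to 33.8, 29.8 to 33.3, 30.0 to 32.3 and 28.5 to 34.4 TPM in the same groups.

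Whether the response to PA differed between genotypes was tested as an interaction, the PA response in HKO less the one in FLOX. No member passed, and 0.194% of all genes did, 0.152% as higher and 0.0422% as lower. At an unadjusted p under 0.05 limma gave 7 of 47 members. Psma4, Psmc2, Psmc6, Psmd5, Psmd7 and Psmg3 were positive and Psmb10 was negative, and the smallest adjusted p was 0.297 (Psmd5 and Psmd7). The interaction of Psmd5 was 0.26 ± 0.078 and that of Psmd7 was 0.17 ± 0.049. That a member passed as higher with PA in 1 genotype alone, as 11 did in HKO and 2 in FLOX, is therefore not shown to be a difference between them. In both genotypes 15 members passed as higher, and the 2 responses share no control libraries. The share of all genes higher in both is not given here, while 29.4% were higher in HKO and 23% in FLOX. Under median-ratio scaling only Psma7, Psmd11 and Psmd2 were higher in both. By contrast, the PA response in HKO and the genotype difference with vehicle share the HKO vehicle libraries, with opposite sign. Low values in those libraries, as for Psmd5, Psmg3 and Psme3, enter both comparisons.

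**Figure D5:**
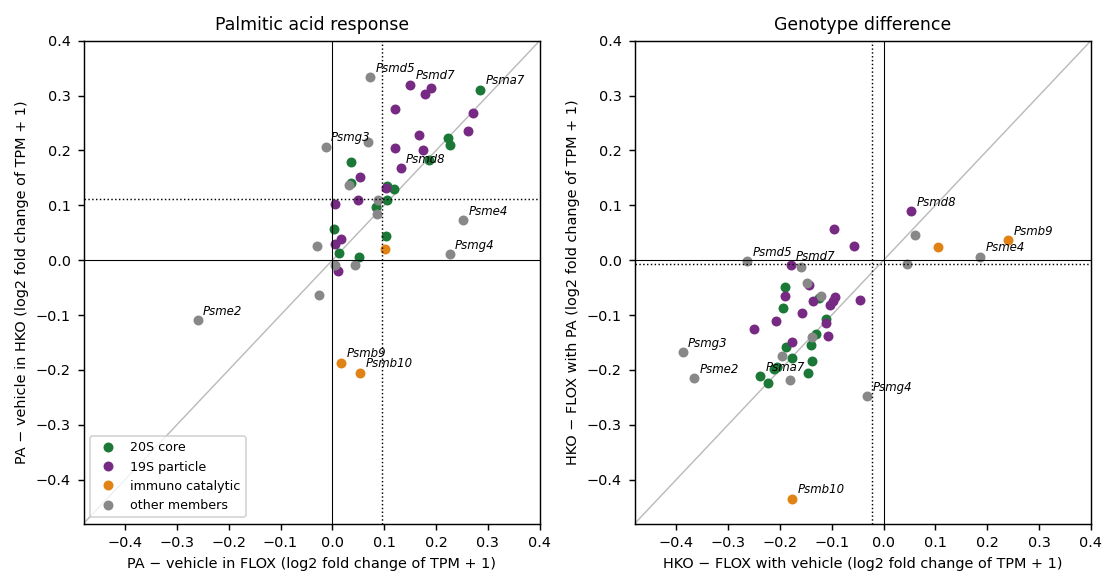
Log2 fold change with PA in HKO against that in FLOX (left) and log2 fold change of HKO against FLOX with PA against that with vehicle (right), for the 47 tested members (points) coloured by role. Psma7 and Psmd11 lie high in both genotypes on the left, Psmb10 lies below 0 in HKO alone, and Psma7 lies below -0.20 on both axes on the right.

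Genes that feed or steer the proteasome were read from lists beside the members. Of the 6 genes of ubiquitin and its activating enzymes, 4 were higher with PA in each genotype and none lower, and 3 in each were higher under median-ratio scaling. Without rescaling, 29.4% of all genes were higher with PA in HKO and 23% in FLOX. Under median-ratio scaling 2103 of all 11858 genes were higher with PA in HKO and 1647 in FLOX. These also stand beside the counts of the lists that follow. Ubb, which encodes a chain of ubiquitin units, had 1524, 1478, 1340 and 1469 TPM in HKO with PA, 859, 875, 875 and 1015 TPM in HKO with vehicle, 1063, 1070, 1047 and 1044 TPM in FLOX with PA, and 838, 820, 800 and 806 TPM in FLOX with vehicle. HKO with PA exceeded every other library. The log2 fold change with PA was 0.68 ± 0.048 in HKO and 0.37 ± 0.048 in FLOX (limma adjusted p = 2.24e-08 and 2.18e-05). HKO against FLOX it was 0.46 ± 0.048 with PA (limma adjusted p = 8.69e-06) and 0.15 ± 0.048 with vehicle (limma adjusted p = 0.0585), and the interaction was 0.31 ± 0.068 (limma adjusted p = 0.0925). Ubb was thus higher in HKO than in FLOX with PA, where all 14 core subunits had a negative sign. The 6 genes did not share its direction there. Of them 2 were higher and 1 lower, with a median log2 fold change of 0.0020, where 4.24% of all genes were higher and 5.5% lower. Rps27a, another ubiquitin gene, averaged 489 ± 24.1 TPM in HKO with PA and 598 ± 28.3 TPM in FLOX with PA, without overlap.

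The p97 segregase pulls ubiquitin-tagged proteins out of complexes and hands them to the proteasome. Of its 8 genes 7 were higher with PA in HKO and 6 in FLOX, and 5 and 4 under median-ratio scaling. The cofactor Nsfl1c averaged 128 ± 3.16 TPM in HKO with PA, 95.0 ± 3.12 TPM in HKO with vehicle, 132 ± 2.90 TPM in FLOX with PA and 110 ± 2.60 TPM in FLOX with vehicle. Among 17 tested partners of the proteasome, 9 were higher and 1 lower with PA in HKO, and 6 were higher and 1 lower in FLOX. Under median-ratio scaling these were 6 and 1, and 2 and 2. Zfand2a, a stress-induced proteasome adaptor, had 43.1, 42.1, 38.0 and 44.4 TPM in HKO with PA, 22.5, 24.6, 25.0 and 22.2 TPM in HKO with vehicle, 27.1, 38.7, 39.1 and 35.5 TPM in FLOX with PA, and 25.7, 20.7, 19.1 and 21.7 TPM in FLOX with vehicle. It rose by 0.80 ± 0.10 in HKO and 0.66 ± 0.10 in FLOX (limma adjusted p = 1.70e-05 and 0.000172). Adrm1, a ubiquitin receptor of the regulatory particle, rose by 0.34 ± 0.036 in HKO and 0.19 ± 0.036 in FLOX (limma adjusted p = 2.04e-06 and 0.000851), the call in FLOX being lost under median-ratio scaling. Ubqln2, a shuttle of ubiquitin-tagged proteins, was the 1 that fell, to 18.4 ± 2.33 TPM in HKO with PA, against 24.7 ± 1.83 TPM in HKO with vehicle, and to 20.2 ± 1.65 TPM in FLOX with PA, against 26.0 ± 2.44 TPM in FLOX with vehicle, while its relative Ubqln4 rose.

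Of the regulators of proteasome genes, 5 of 8 tested were higher with PA in HKO and 2 in FLOX, and 2 in each, with 1 lower, under median-ratio scaling. The unscaled count in FLOX is near the share of all genes that were higher there without rescaling. Nfe2l1, the activator named above, had 63.5, 76.5, 74.5 and 56.6 TPM in HKO with PA, 78.4, 84.5, 74.4 and 71.5 TPM in HKO with vehicle, 55.1, 59.7, 62.3 and 53.3 TPM in FLOX with PA, and 74.2, 63.4, 58.0 and 63.7 TPM in FLOX with vehicle. The groups overlapped in all 4 comparisons and none passed. Nfe2l1 is known to be controlled after transcription, and its protein was not measured. Ddi2, the protease that releases it, rose by 0.49 ± 0.15 in HKO and 0.57 ± 0.15 in FLOX (limma adjusted p = 0.0137 and 0.00711). Its PA and vehicle libraries did not overlap in HKO. In FLOX they did, since FLOX PA replicate 1 (15.26 TPM) lay within the vehicle range of 12.33 to 17.16 TPM.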

How the data were processed

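Stranded total RNA libraries of primary mouse hepatocytes were measured in 4 groups of 4. The authors deposited TPM per gene. Per the submitters' processing notes RSEM 1.3.3 was used, and the genome build they name is a human one although the gene identifiers are of mouse. Aligner and annotation were not given in the sources used here. Because such values hold no read depth, the depth is unknown and no counting intervals are given. TPM are shares of a library, so a change in abundant transcripts shifts all others.

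From these values log2(TPM + 1) was fitted with limma 3.58.1 (R 4.3.3) over the 11858 genes with at least 1 TPM in at least 4 of 16 libraries, with the 4 group means as terms, a mean-variance trend, two-sided tests and Benjamini-Hochberg adjustment over all those genes. Calls have an adjusted p under 0.05. The procedure was tested on simulated data. Each comparison was refitted under 26 alternatives (25 for the interaction): a pseudocount of 0.1, a stricter filter (5 TPM) or none, median-ratio and quantile scaling, no trend, sample weights, the 2 groups alone, the replicate block, and libraries left out. Symbols were found for 52083 of the 55416 identifiers.

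The members and lists were chosen with earlier results of these data known. Values in every library are given for catalytic subunits, activators, assembly factors, the inhibitor and up to 4 members per direction with the largest called change in a comparison, with exceptions by range (Psmg2, Psmd9, Psmd10). Paaf1 and Nfe2l3, which are on the lists, were not tested. Some listed genes are not reported here.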

Additional observations from a re-analysis of the deposited data

Results flagged for a closer look

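In 7 of 188 groups of 4 libraries, a member had 1 library far from the other 3, by Dixon's criterion for a gap to the nearest library. Chance gives about 1 in 20 such groups. Psme2 had 134.89 TPM in FLOX PA replicate 4, against 87.76 to 92.54 TPM in the other 3 libraries. Psmb1 had 112.66 TPM in FLOX PA replicate 1, against 101.13 to 101.63 TPM. Psmd1 had 99.4 TPM in FLOX vehicle replicate 1, against 90.21 to 90.92 TPM. Psmd11 had 187.41 TPM in HKO PA replicate 2, against 196.02 to 196.74 TPM. In the HKO libraries with vehicle, Psmd14 had 93.46 TPM in replicate 1, against 86.59 to 87.01 TPM, Psmd9 had 15.86 TPM in replicate 2, against 17.15 to 17.35 TPM, and Psmf1 had 19.49 TPM in replicate 4, against 16.16 to 16.66 TPM.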

How the results depend on the processing

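Scaling moved the counts most. Under median-ratio scaling 12 members passed with PA in HKO, 5 with PA in FLOX, 4 in HKO against FLOX with PA and 8 with vehicle. Of all genes 37.7%, 30.6%, 8.87% and 9.97% passed in the same order. With PA in HKO the log2 fold changes of Psmb7 (-0.013), Psmc5 (-0.012) and Psmd6 (-0.019) then turned negative, as did the median over members with PA in FLOX (-0.0093). HKO against FLOX with PA was the least steady count, with 16 members as fitted. It had 10 under quantile normalization, 9 without the mean-variance trend and 8 from the 2 groups alone. Of all genes 10.5%, 8.66% and 5.64% passed there. Leaving out 1 library gave 8 to 17 members there (8 without FLOX PA replicate 4, 9 without HKO PA replicate 2, 10 without FLOX PA replicate 1), 23 to 27 with PA in HKO, 14 to 16 with PA in FLOX and 18 to 27 in HKO against FLOX with vehicle. The cause was not tested. No member passed the interaction under any of its 25 alternatives.

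The labels do not say whether a replicate number marks a shared source of PA and vehicle libraries. Same-numbered libraries of a genotype correlated at -0.15 to 0.086 once group means were removed. Low correlations cannot exclude a shared source, so pairing stays unknown. With the replicate block 23 members passed with PA in HKO, 13 with PA in FLOX, 11 in HKO against FLOX with PA, 21 with vehicle and 0 in the interaction. Of all genes 35.7%, 26.9%, 8.53%, 10% and 0.0253% passed in the same order. Of 6187 values of single genes under an alternative, 5589 kept direction and call, 305 lost the call, 48 gained one, 242 uncalled ones changed sign and 3 called ones reversed. All 26 settings kept 9 calls with PA in HKO, 4 with PA in FLOX, 4 in HKO against FLOX with PA and 7 with vehicle. Depth is unknown, so what it limits cannot be stated.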
